A study of Mus musculus with 32 samples.

Results

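The transcription factors that mark the posterior presomitic mesoderm (PSM) and the tailbud were followed in mouse PSM made in culture. The set is a list of 8 gene names: the T-box genes Tbx6 and T (Brachyury), the bHLH gene Msgn1, the homeobox genes Evx1 and Nkx1-2, and the caudal genes Cdx1, Cdx2 and Cdx4. All 8 are among the 21886 genes of the table, and 7 of them are among the 11772 genes that passed the expression filter. Cdx4 did not pass it. The cells were epiblast stem cells of the RIKEN line AES0204 carrying a luciferase reporter of the clock gene Hes7, and only this reporter background was studied, with no unmodified line beside it. All dishes received the same agents: the GSK3 inhibitor CHIR99021, which switches on Wnt/β-catenin signalling, bFGF (20 ng/ml), the TGF-β receptor inhibitor SB431542 (10 µM) and the BMP receptor inhibitor LDN193189 (250 nM). CHIR99021 stood at 10 µM for 30 hours and at 1 µM afterwards. The labels do not state from which event the sampling minutes count. The comparison is between 2 time courses, Ex4, sampled from 155 to 405 min, and Ex5, sampled from 165 to 425 min, with 16 dishes frozen in turn and 1 RNA-seq library per dish.

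These factors act in a chain. Wnt and FGF signals of the tailbud maintain T, which marks the primitive streak and the progenitors of the mesoderm, and the Cdx proteins, which hold the posterior progenitors in their growing state and regulate Hox genes. Nkx1-2 marks the caudal epiblast with its neuromesodermal progenitors, which can give spinal cord or mesoderm, and Evx1 marks the streak and tailbud. Tbx6 and Msgn1 are turned on as cells commit to the PSM, where both act on genes of the Notch pathway and of the segmentation clock.

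Promoter windows were searched for 7 of the 8 members, and Cdx1 was left out of the search. Among these 7, the windows of Msgn1 and T held the motif of the Wnt effectors TCF/LEF. They are shown because both genes are known Wnt targets and their time courses differed between the experiments. Evx1 and Cdx2 also differed in slope between the experiments, and their windows held no TCF/LEF match. A link between the motif and the time courses was not tested. The windows are the 250 bases before the RefSeq start (GRCm38.p6), Msgn1 at chr12:11208949-11209198 on the minus strand and T at chr17:8434173-8434422 on the plus strand. Each is written 5′ to 3′ on the strand of its gene, with capitals marking TCF/LEF matches (CTTTGAA or CTTTGAT) and T-box matches (AGGTGT) on either strand.
Msgn1: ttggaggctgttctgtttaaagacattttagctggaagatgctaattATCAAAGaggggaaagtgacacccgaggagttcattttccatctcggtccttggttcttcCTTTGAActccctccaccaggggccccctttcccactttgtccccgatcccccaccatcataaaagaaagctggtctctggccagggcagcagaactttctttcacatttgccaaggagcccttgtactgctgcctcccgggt
T: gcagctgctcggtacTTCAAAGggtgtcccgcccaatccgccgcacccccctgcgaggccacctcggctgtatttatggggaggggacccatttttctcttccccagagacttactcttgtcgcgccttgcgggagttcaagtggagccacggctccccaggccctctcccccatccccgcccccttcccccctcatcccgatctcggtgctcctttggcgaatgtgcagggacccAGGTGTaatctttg
In the Msgn1 window the TCF/LEF matches begin 203 and 143 bases before the start. In the T window a TCF/LEF match begins 235 bases and a T-box match 14 bases before it. TCF/LEF letters were found in 2 of 7 member windows and in 7.5% of 32536 RefSeq windows of this length. T-box letters were found in 3 of 7 (T, Evx1 and Cdx4) against 11.9%. The CDX letters TTTATNG were found in 3 of 7 against 9.74%, the RBPJ letters TGGGAA in 2 of 7 against 21.6%, and the N-box letters CACNAG in 3 of 7 against 36.7%. A match describes the sequence and is not a measured binding site.

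Levels were given as counts scaled to library size (CPM), and genes were compared with each other per kilobase of exon. In Ex4, T led with 284 ± 12.5 CPM per kb (SD, n = 16), followed by Tbx6 with 243.5 ± 23.8 and Cdx2 with 208 ± 11.5, whose spreads reached each other. The spreads of Nkx1-2 with 106 ± 13.8 and Msgn1 with 97.2 ± 8.11 also reached each other, and Evx1 stood at 57.3 ± 4.01. In Ex5 the order changed at the top and in the middle. Tbx6 led there with 313 ± 41.1 CPM per kb, above T with 243 ± 28.5. Cdx2 with 187.5 ± 18.5 and Msgn1 with 169 ± 28.7 came next, and their spreads reached each other. Nkx1-2 with 47.2 ± 6.35 stood above Evx1 with 38.0 ± 6.38 by more than either SD, though their spreads met as well. Cdx1 was far lower in both (2.13 ± 1.13 and 1.49 ± 1.04 CPM per kb), and Cdx4 was close to the detection limit. The samples carry the label PSM, and 6 of 8 members were abundant, as were the PSM genes Dll1, Rspo3 and Fgf8 (722, 198 and 71.6 CPM on average in Ex4). Cdx1 and Cdx4, also named for the posterior PSM and tailbud, were not abundant.

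**Figure D1:**
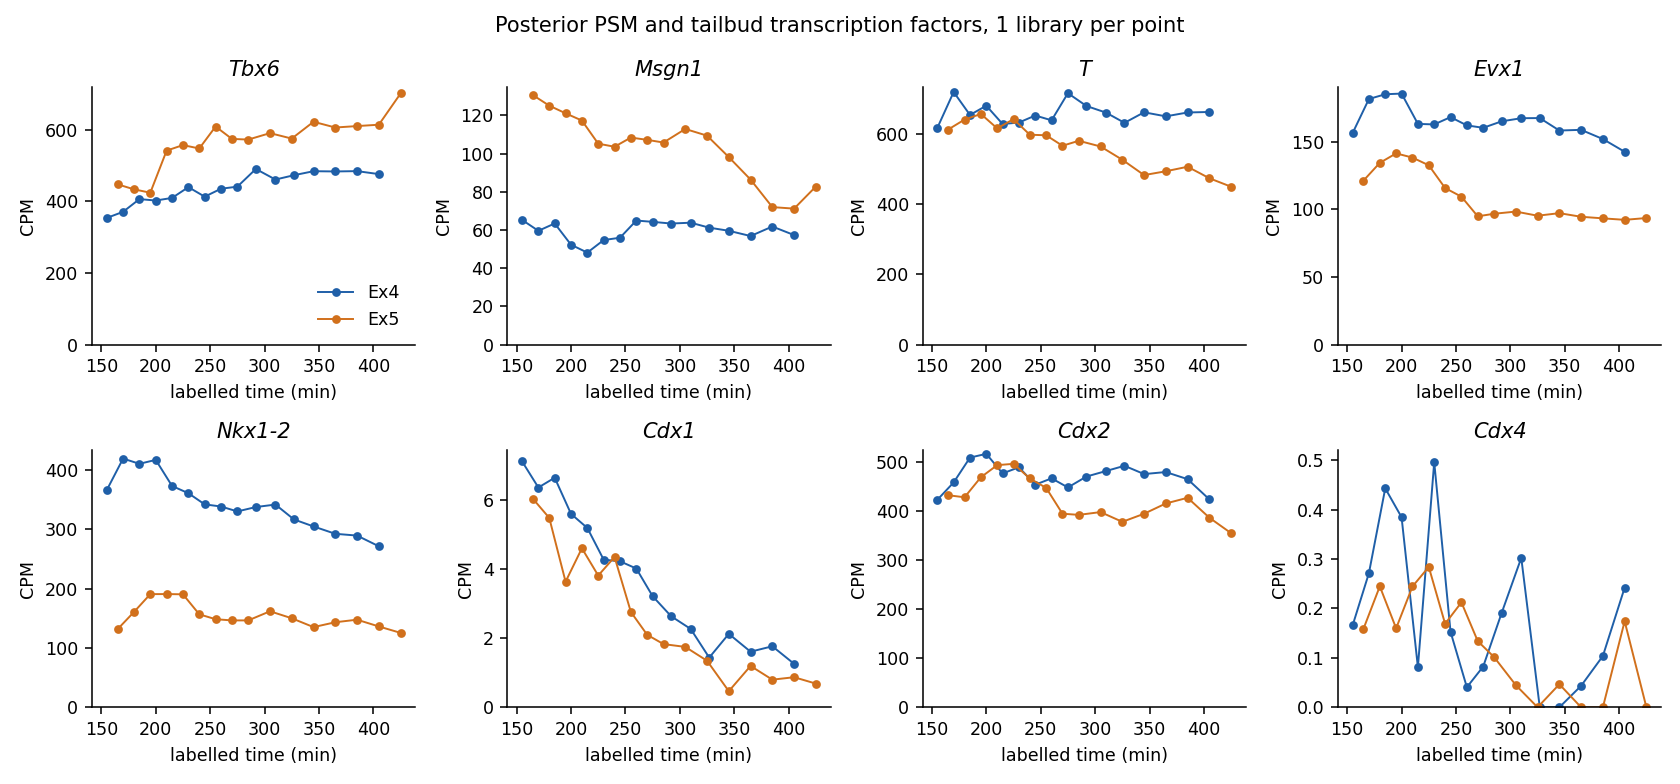
Level of each of the 8 genes (vertical axis, CPM, from 0, with a scale of its own per gene) against labelled time in minutes, blue for Ex4 and orange for Ex5, 1 library per point. Tbx6 climbs in both, Cdx1 drops in both, Msgn1 lies higher and Nkx1-2 and Evx1 lie lower throughout Ex5, and Cdx4 stays under 0.5 CPM.

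For all 7 tested members the mean slope of both experiments passed: 1, Tbx6, rose and 6 fell (edgeR quasi-likelihood test, Benjamini-Hochberg adjusted). Among all tested genes 53.3% passed the same test, 26.8% rising and 26.6% falling. A mean slope does not show a change in each course. Of the Ex4 slopes 1 rose and 2 fell (16.9% and 15.5% of all tested genes), and of the Ex5 slopes 1 rose and 6 fell (25.8% and 25.3%). The level at 285 min also differed between the experiments for all 7, with Tbx6 and Msgn1 higher in Ex5 and the other 5 lower, where 55.1% of all tested genes differed, 27.4% higher and 27.7% lower. The median member slope was -0.11 on the log2 scale per 100 min, beside -0.002 over all tested genes. The median level difference was -0.23 against -0.002. Slopes below are log2 changes per 100 min and level differences are log2 Ex5 minus Ex4, each ± SE over 32 libraries. Each time point had 1 library per experiment, so p-values measure the spread of dishes around fitted curves, which may be technical. Ex4 and Ex5 were 1 time course each. The spread between repeated courses was therefore not measured, and no p-value for a difference between Ex4 and Ex5 takes it into account. In these bulk samples fewer cells of a type and less RNA per cell cannot be told apart.

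Tbx6, the T-box factor that commits cells to the PSM, lies on chromosome 7 (126781483 to 126785560, plus strand, GENCODE on mm10). In Ex4 it ranged from 354 CPM at 155 min to 491 CPM at 292 min, with a median of 441 CPM. In Ex5 it ranged from 424 CPM at 195 min to 701.5 CPM at 425 min, with a median of 575 CPM. The late libraries were the higher ones in both, and the ranges of the experiments overlapped. The slope was 0.18 ± 0.020 (adjusted p = 9.58e-10), and the level difference was 0.34 ± 0.029 (adjusted p = 9.08e-13). Within Ex5 the first 3 libraries stayed between 424 and 448 CPM and the other 13 between 542 and 701.5 CPM, with a step between 195 and 210 min. Without these 3 libraries the slope was 0.14 (adjusted p = 1.78e-08).

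Msgn1, the bHLH factor of PSM differentiation, is a gene of 1 exon on chromosome 12 (11208360 to 11208972, minus strand). In Ex4 it ranged from 48.2 CPM at 215 min to 65.3 CPM at 155 min, with a median of 60.4 CPM. In Ex5 it ranged from 71.2 CPM at 405 min to 131 CPM at 165 min, with a median of 106.5 CPM. Every Ex5 library lay above every Ex4 library. The level difference was 0.78 ± 0.030, or 1.72-fold (adjusted p = 5.79e-23). Its mean slope was -0.11 ± 0.021 (adjusted p = 4.88e-05), which came from Ex5 (-0.25 ± 0.027, adjusted p = 2.11e-09). The slope in Ex4 was 0.033 ± 0.030 (adjusted p = 0.415). At the 4 times sampled in both courses the log2 distance was 0.72 at 345 min, 0.60 at 365 min, 0.22 at 385 min and 0.31 at 405 min. The fit to these times alone gave 0.47 (adjusted p = 0.000562). Equal labelled minutes were unequal points of the Hes7 cycle, whose later fitted peak came at 347.4 min for Ex4 but 372.2 min for Ex5. After removal of level and trend, Msgn1 at 345 min stood at -0.005 log2 in Ex4 and 0.11 in Ex5. At 385 min it stood at 0.042 in Ex4 and -0.22 in Ex5. The part of this offset in the distances was not tested.

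T, the T-box factor of streak and nascent mesoderm, lies on chromosome 17 (8434423 to 8442496, plus strand). In Ex4 it ranged from 616 CPM at 155 min to 718 CPM at 170 min, with a median of 656.5 CPM. In Ex5 it ranged from 449 CPM at 425 min to 656 CPM at 195 min, with a median of 573 CPM. The early libraries of both experiments overlapped, and at 345, 365, 385 and 405 min the Ex5 library was the lower one by 0.38 to 0.48 on the log2 scale. The slope was -0.098 ± 0.015 (adjusted p = 1.22e-06), again carried by Ex5 (-0.20 ± 0.020, adjusted p = 2.97e-10) beside 0.003 ± 0.021 in Ex4 (adjusted p = 0.939). The level difference was -0.23 ± 0.022, and -0.43 (adjusted p = 1.54e-05) over those 4 shared times. T is also a notochord gene, and the 7 notochord and node markers summed to 6.25 to 9.12 CPM in Ex4 and 6.23 to 9.53 CPM in Ex5, with Noto, Shh and Nog under 1 CPM on average.

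Evx1, a homeobox gene of the streak and tailbud, lies on chromosome 6 (52313498 to 52318378, plus strand). In Ex4 it ranged from 143 CPM at 405 min to 186 CPM at 200 min, with a median of 163 CPM. In Ex5 it ranged from 92.3 CPM at 405 min to 141 CPM at 195 min, with a median of 97.8 CPM. All Ex4 libraries lay above all Ex5 libraries, though the closest pair nearly met. The level difference was -0.59 ± 0.029, or 0.664-fold. The mean slope was -0.14 ± 0.020 (adjusted p = 1.91e-07), with -0.23 ± 0.027 in Ex5 (adjusted p = 9.08e-09) and -0.061 ± 0.028 in Ex4 (adjusted p = 0.0907). In Ex5 the level fell to 94.9 CPM at 270 min and then stayed between 92.3 and 98.4 CPM. The antisense gene Evx1os overlaps Evx1 and has no row in the table, and since the strand setting of the counting is not given in the sources used here, reads of both cannot be told apart.

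Nkx1-2, the homeobox gene of the caudal epiblast, had the largest level difference of the 7. It lies on chromosome 7 (132594878 to 132599637, minus strand), inside the annotated span of Fgfr2, whose mean count was 82.1, and it overlaps the antisense model Gm16764. No counts are given for Gm16764, and without the strand setting its reads cannot be told apart from those of Nkx1-2. In Ex4 Nkx1-2 ranged from 271.5 CPM at 405 min to 419 CPM at 170 min, with a median of 340.1 CPM. In Ex5 it ranged from 125.5 CPM at 425 min to 191 CPM at 210 min, with a median of 148 CPM. Every Ex4 library lay above every Ex5 library. The level difference was -1.13 ± 0.033, or 0.457-fold (adjusted p = 8.57e-27), and the slope was -0.16 ± 0.023 (adjusted p = 3.88e-07). It was -0.20 ± 0.031 in Ex4 (adjusted p = 7.26e-06) and -0.12 ± 0.031 in Ex5 (adjusted p = 0.0015). The fall in Ex5 was not steady: the level rose from 132 CPM at 165 min to 191 CPM at 210 min before falling. With Msgn1 and Evx1, Nkx1-2 was 1 of 3 members out of 7 whose ranges did not overlap, where 3.53% of all tested genes did not overlap.

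The 8 neuromesodermal partners listed beside Nkx1-2 were all tested, and 6 were lower and 2 higher in Ex5, against 27.7% and 27.4% of all tested genes. Sox2, the neural and pluripotency factor that progenitors co-express with T, differed by -1.16 ± 0.038 (adjusted p = 3.47e-25), Epha5, an ephrin receptor, by -1.64 ± 0.052, and Hes3, a bHLH repressor, by -2.25 ± 0.14. Hes3 stood at a low level, with 2.52 CPM on average in Ex4 and 0.562 CPM in Ex5. The 2 higher partners were Gbx2 (0.11) and Fgf17 (0.125). Of the 8, 2 rose and 4 fell over time, against 26.8% and 26.6%. The 8 neural markers summed to 33.4 to 54.4 CPM in Ex4 and 30.2 to 66.5 CPM in Ex5. Of 6 tested, 1 (Irx3) was higher and 3 (Sox1, Sox3 and Hes3) were lower in Ex5, Neurog2 and Olig2 were under 1 CPM on average, and none was at 0 in every library. Sox3 and Hes3 are on both lists and were already counted among the lower partners. The part of neural cells in the Nkx1-2 difference was not tested.

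The caudal genes differed widely in level. Cdx2 (chromosome 5, 147300805 to 147307270, minus strand) ranged in Ex4 from 423.5 CPM at 155 min to 517 CPM at 200 min, with a median of 473.5 CPM. In Ex5 it ranged from 355 CPM at 425 min to 497 CPM at 225 min, with a median of 422 CPM. The ranges overlapped. From 270 to 345 min the Ex5 libraries stood between 379 and 398.5 CPM, and at 365 and 385 min at 416 and 428 CPM. At 405 and 425 min they stood at 387 and 355 CPM. The mean slope was -0.063 ± 0.014 (adjusted p = 0.000343), the smallest of the 7. It was -0.12 ± 0.019 in Ex5 (adjusted p = 1.2e-06) and -0.002 ± 0.020 in Ex4 (adjusted p = 0.963). The level difference was -0.15 ± 0.021. In every library Cdx2 made up 97.8 to 99.6% (Ex4) or 98.2 to 99.8% (Ex5) of the summed Cdx level per kilobase. Cdx2 is also a gene of gut endoderm. Of the endoderm markers 3 were tested. Cldn6, a tight junction gene, fell (slope -0.49, adjusted p = 6.16e-16), as did the forkhead gene Foxa2 (-0.27, adjusted p = 0.00248), and its relative Foxa1 rose (0.29, adjusted p = 0.000326). Sox17, Gata6, Cer1 and Hnf4a were under 1 CPM on average. The part of endoderm cells in the Cdx2 level was not tested.

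Cdx1 (chromosome 18, 61018862 to 61036199, minus strand) had the steepest slope of the 7. In Ex4 it went from 7.12 CPM at 155 min, the highest, to 1.26 CPM at 405 min, the lowest, with a median of 3.62 CPM. In Ex5 the highest was 6.04 CPM at 165 min and the lowest 0.467 CPM at 345 min, with a median of 1.96 CPM. Early libraries were high and late ones low in both, and the ranges overlapped. The slope was -1.24 ± 0.061, a 0.425-fold change per 100 min (adjusted p = 7.72e-19), with -1.09 ± 0.076 in Ex4 and -1.38 ± 0.089 in Ex5. These levels rest on 26 to 215 counts per library in Ex4 and 10 to 114 in Ex5. The level difference was -0.52 ± 0.093, and -1.06 (adjusted p = 0.0133) over the 4 times sampled in both courses. At these times the log2 distance ran from -0.42 at 365 min to -2.14 at 345 min, where the Ex5 library held 10 counts. Epiblast genes moved at the same time: of 4 tested among 8, Pou5f1 (-0.54) and Cdh1 (-0.59) fell, Dnmt3b (0.061) rose and Pou3f1 had a slope of -0.057 (adjusted p = 0.499). Nanog, Fgf5, Otx2 and Utf1 were under 1 CPM on average, and the summed list ranged from 266 to 377 CPM in Ex4 and 225 to 300 CPM in Ex5. The part of remaining epiblast cells in the Cdx1 result was not tested.

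Cdx4 (chromosome X, 103321398 to 103330592, plus strand) was barely detected. Its counts ran from 0 to 13 per library in Ex4, 72 in all with 2 libraries at 0, and from 0 to 7 in Ex5, 45 in all with 4 libraries at 0. In the 6 libraries at 0 the depth allows a level of up to 0.116 to 0.186 CPM (3 counts), a limit that covers counting error only. The highest value was 0.496 CPM, at 230 min in Ex4. Tested without the expression filter, Cdx4 fell by 1.00 ± 0.28 on the log2 scale per 100 min (adjusted p = 0.00409), and its level difference of -0.61 ± 0.42 did not pass (adjusted p = 0.271).

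**Figure D2:**
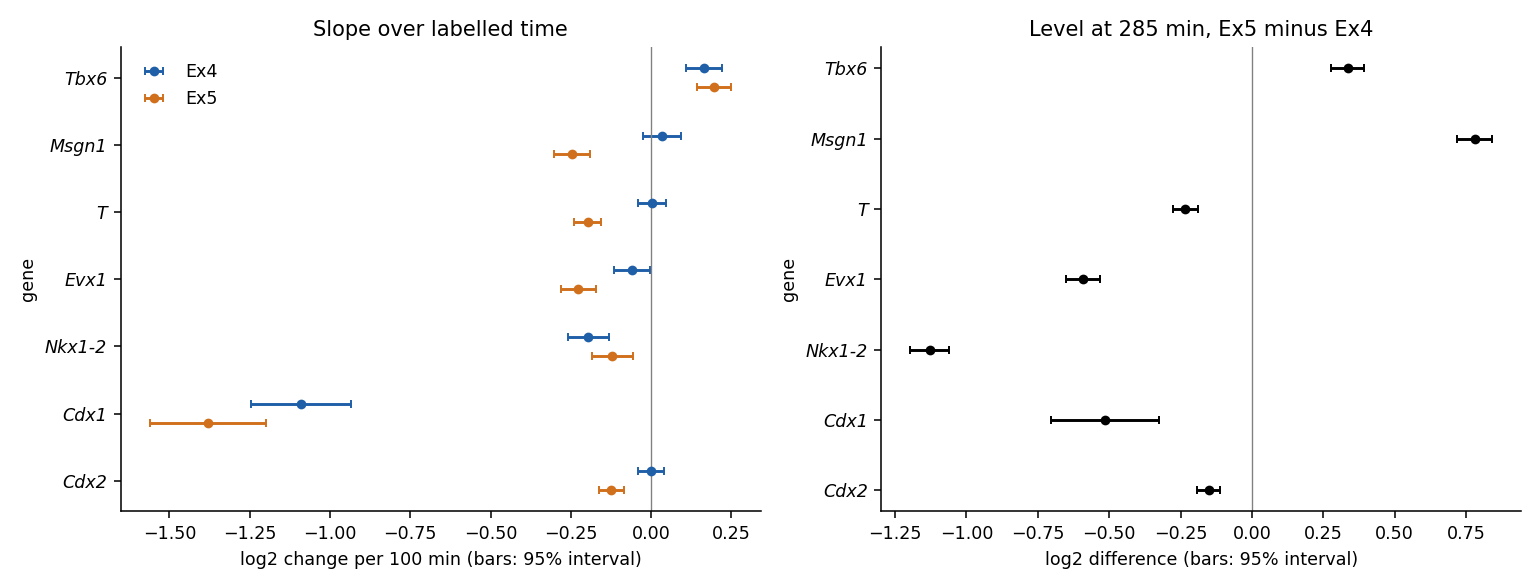
Left, fitted slope of the 7 tested genes in Ex4 (blue) and Ex5 (orange) as log2 change per 100 min. Right, log2 level difference Ex5 minus Ex4 at 285 min. Bars are 95% intervals. The Ex4 and Ex5 slopes lie apart for Msgn1, T, Evx1 and Cdx2, and the level differences run from -1.13 for Nkx1-2 to 0.78 for Msgn1.

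The pace of change differed between the time courses for Msgn1, T, Evx1 and Cdx2, and in each of these 4 the Ex5 slope was the lower one. That is 4 of 7 members, where 16.1% of all tested genes differed in slope, 9.06% with the lower and 7.03% with the higher slope in Ex5. The difference, Ex5 minus Ex4, was -0.28 ± 0.039 for Msgn1 (adjusted p = 3.98e-06), -0.20 ± 0.028 for T (adjusted p = 4.02e-06), -0.17 ± 0.037 for Evx1 (adjusted p = 0.00187) and -0.12 ± 0.026 for Cdx2 (adjusted p = 0.00141). For the Ex4 slopes of the joint fit Tbx6 rose and Nkx1-2 and Cdx1 fell, 3 of 7 members against 32.5% of all genes (15.5% falling, 16.9% rising), and the slopes of Evx1 (-0.061 ± 0.028, adjusted p = 0.0907) and Cdx2 (-0.002 ± 0.020, adjusted p = 0.963) did not pass. Fitted to the Ex4 libraries alone, Evx1 did pass (-0.067, adjusted p = 0.0236). For the Ex5 slopes all 7 changed, against 51.2%: 6 fell, against 25.3%, and 1 rose, against 25.8%. For Tbx6 the slope difference was 0.031 (95% interval -0.044 to 0.11), for Nkx1-2 0.075 (-0.011 to 0.16) and for Cdx1 -0.29 (-0.53 to -0.046), none past the adjusted threshold. The adjusted p for Cdx1 was 0.0943, and 0.0431 without the Ex4 library of 327 min and 0.0482 with the period set to 180 min (-0.32). With no rhythm terms in the model the Cdx2 slope difference was -0.11 (adjusted p = 0.0596).

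Ratios of counts within a library are given as a description. For Msgn1 and Nkx1-2 the CPM ranges, apart in opposite directions, already fix that the ratios do not overlap. Msgn1 reads stood to Nkx1-2 reads at 0.125 to 0.214 in Ex4 (median 0.187) and at 0.488 to 0.991 in Ex5. The 2 ranges did not overlap. Tbx6 reads stood to T reads at 0.517 to 0.750 in Ex4 and at 0.647 to 1.56 in Ex5, where the ratio was lowest at 195 min and highest at 425 min. From 305 min on every Ex5 library held more Tbx6 than T reads, and every Ex4 library held fewer.

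**Figure D3:**
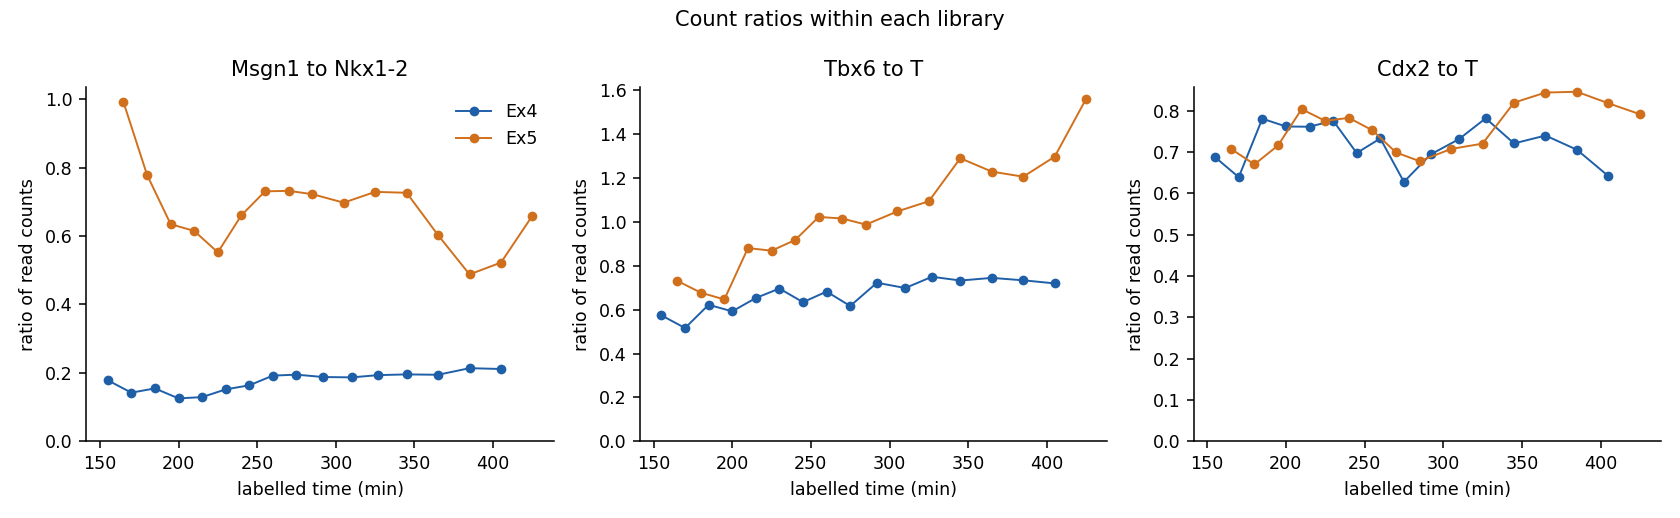
Ratio of read counts within each library (vertical axis, from 0) against labelled time in minutes, blue for Ex4 and orange for Ex5. The Msgn1 to Nkx1-2 ratio stays under 0.214 in Ex4 and above 0.488 in Ex5, the Tbx6 to T ratio climbs to 1.56 in Ex5, and the Cdx2 to T ratio overlaps between the experiments.

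Rhythm was read against the Hes7 cycle, the period of which was 135 min (95% interval 129 to 141 min). At this period Ex4 covered 1.85 cycles and Ex5 1.93, so a repeat of the pattern was hardly sampled. Cdx2 and Msgn1 passed the rhythm test over both experiments, 2 of 7 members, where 1.32% of all tested genes did. Their amplitudes were small beside the 2.01-fold of Hes7, and they peaked at different phases. After removal of level and trend, Cdx2 lay at 0.056 ± 0.041 log2 (SD) in the 6 Ex4 libraries near the Hes7 peak and at -0.075 ± 0.074 in the 5 opposite to it. In Ex5 it lay at 0.10 ± 0.047 near the peak (n = 5) and at -0.095 ± 0.020 opposite (n = 6). The near-peak libraries were the higher ones, without overlap in either experiment. Fitted over both, Cdx2 cycled 1.15-fold (log2 0.20 ± 0.029, adjusted p = 6.96e-05), with its peak at -6.64 ± 3.08 min from that of Hes7, where a negative time is earlier.

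Msgn1 went the other way. It lay at -0.10 ± 0.12 near the Hes7 peak and 0.085 ± 0.090 opposite in Ex4, and at -0.096 ± 0.091 and 0.092 ± 0.093 in Ex5. Its libraries opposite to Hes7 were the higher ones, with overlap in Ex4 and, by a small margin, in Ex5. The fit gave 1.19-fold (log2 0.25 ± 0.043, adjusted p = 0.00162) with a peak at -57.3 ± 3.78 min. The peaks fitted in each experiment by itself were close, -57.8 ± 5.11 and -56.9 ± 5.33 min for Msgn1 and -8.10 ± 5.11 and -5.34 ± 3.89 min for Cdx2. Any error in the fitted Hes7 curve itself is not part of these SEs.

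The other 5 members did not pass the rhythm test. Nkx1-2 (log2 0.185 ± 0.048 from trough to peak, adjusted p = 0.107) and Evx1 (log2 0.16 ± 0.043, adjusted p = 0.127) had fitted peaks at -21.3 ± 5.61 and -23.2 ± 5.78 min. Evx1 passed without the Ex5 library of 425 min (adjusted p = 0.0248) or with a quadratic time term (0.00568), and Nkx1-2 passed without the Ex5 library of 345 min (0.0287) or that of 305 min. Tbx6 had 1.06-fold (adjusted p = 0.550), T 1.01-fold (adjusted p = 0.956) and Cdx1 1.20-fold (adjusted p = 0.482). Within 1 experiment, Ex4 gave 0 of 7 calls (Msgn1 and Cdx2 each at adjusted p = 0.156) against 0.331% of all genes, and Ex5 gave 1, Cdx2 (adjusted p = 0.0213), against 0.408%. No member passed the test for a difference in rhythm between the experiments. The SEs ran from 0.059 log2 for Cdx2 to 0.229 for Cdx1, so this does not show that the rhythms were alike. That test called 0 of 7 and 0% of all genes in edgeR and none in DESeq2 or limma-voom, with 644 genes at an unadjusted p under 0.05 in edgeR. With the period set to 120 min, or with no trend term, Msgn1 lost its call (adjusted p = 0.105 and 0.119), and at 180 min Cdx2 lost it (adjusted p = 0.127).

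**Figure D4:**
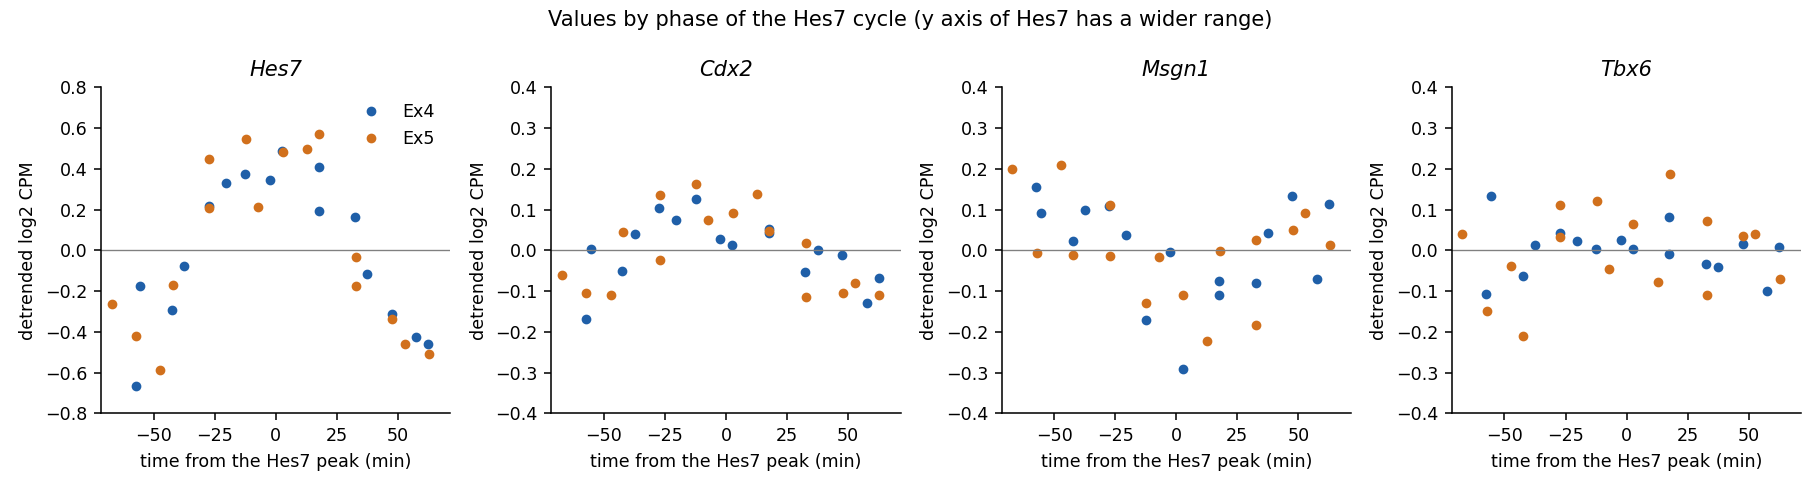
Detrended log2 CPM (vertical axis) of Hes7, Cdx2, Msgn1 and Tbx6 against time from the nearest fitted Hes7 peak in minutes, blue for Ex4 and orange for Ex5, 1 library per point. The Hes7 panel spans a wider vertical range than the others. Cdx2 is high around the Hes7 peak, Msgn1 is low there, and Tbx6 shows no rhythm past the test.

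Bending of the time course was tested with a quadratic term. Tbx6 (-0.081 ± 0.023 log2 per squared 100 min, adjusted p = 0.0144) and Msgn1 (-0.072 ± 0.025, adjusted p = 0.0386) bent downwards, 2 of 7 against 18.5% of all genes (10.3% downwards, 8.2% upwards). Neither call was kept when early or late libraries were left out. Without the first 3 Ex5 libraries the Tbx6 term was -0.019 (adjusted p = 0.631) and the Msgn1 term -0.063 (adjusted p = 0.213), while the Evx1 term passed (0.10, adjusted p = 0.00505, against 0.044 with all libraries). Without the first and last Ex4 libraries the Tbx6 and Msgn1 terms were -0.079 (adjusted p = 0.0765) and -0.047 (adjusted p = 0.303). Leaving out any 1 of 14 single libraries also ended the Msgn1 call (adjusted p up to 0.27), and the Evx1 term passed without the Ex5 library of 165 min (adjusted p = 0.0145).

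Upstream of the members stand the posterior signals and Wnt effectors, of which 17 of 18 listed genes were tested. Over time 9 fell and 2 rose, against 26.6% and 26.8% of all tested genes. In level 7 were higher and 8 lower in Ex5, against 27.4% and 27.7%. Wnt3a and Fgf17 of this list are also among the neuromesodermal partners above. Wnt8a, a ligand of the streak, had the steepest fall (-0.43 ± 0.024, adjusted p = 1.81e-17), and the tailbud ligand Wnt3a fell by 0.25. Tcf7l1, a mainly repressive TCF factor, rose by 0.25 ± 0.025, and Lef1, an activating one, rose by 0.087. Among them 3 were rhythmic, against 1.32% of all tested genes. These were Fgf4, an FGF ligand of the tailbud (1.19-fold, peak at -60.7 min), Cyp26a1, which degrades retinoic acid (1.21-fold, 6.3 min), and the Wnt-responsive zinc finger gene Sp8 (1.19-fold, -60.3 min).

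Downstream, 8 of 10 listed targets of Tbx6 and Msgn1 were tested, and 6 rose over time while 0 fell, against 26.8% and 26.6% of all tested genes. Notch1, a Notch receptor gene, rose by 0.26 ± 0.024 (adjusted p = 1.28e-11) and the Notch ligand gene Dll3 by 0.165 ± 0.021. In level 7 were higher in Ex5 and 0 lower, against 27.4% and 27.7%. Snai1, a repressor of epithelial genes, was higher by 0.55 ± 0.037, the Notch ligand Dll1 by 0.43 ± 0.023 and the glycosyltransferase gene Lfng by 0.36 ± 0.053. Of the 8, 6 were rhythmic, against 1.32% of all tested genes. They include Hes7, from which the phase was taken, and Cyp26a1, which is also on the list of posterior signals above. Mesp2 and Ripply2, which mark the next somite to form, were under 1 CPM on average. With them, 10 of 16 anterior PSM and somite genes were under 1 CPM on average. Of the 6 tested there 3 rose and 2 fell over time, against 26.8% and 26.6% of all tested genes. Foxc1, a forkhead gene of paraxial mesoderm, rose by 0.23 ± 0.031 (adjusted p = 8.08e-08), and Aldh1a2, which makes retinoic acid, fell by 0.18 ± 0.023.

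Other genes of the primitive streak, where T and Evx1 are first expressed in the embryo, also had falling mean slopes. Of 8 listed 4 were tested and all 4 fell over time, against 26.6% of all tested genes. Among them were the homeobox genes Lhx1 (-0.415 ± 0.058, adjusted p = 2.04e-07) and Mixl1 (-0.22 ± 0.034, adjusted p = 1.22e-06) and the ligand gene Fgf8 (-0.13 ± 0.021). The lists overlap: Fgf8 is also counted with the posterior signals, and Mesp1 (-0.17) also with the anterior PSM and somite genes. In level 2 of the 4 were higher and 1 lower in Ex5, against 27.4% and 27.7%. The list summed to 117 to 143 CPM in Ex4 and 102 to 172 CPM in Ex5, and Eomes, Gsc, Wnt3 and Nodal were under 1 CPM on average. Lateral, intermediate and vascular mesoderm genes summed to 5.96 to 8.73 CPM in Ex4 and 3.95 to 11 CPM in Ex5, with 7 of 10 under 1 CPM on average.

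The relatives of the members were mostly at very low levels. Of 15 other T-box genes 13 were under 1 CPM on average. Tbx2 (slope 0.23, adjusted p = 0.0110) and Mga, a large protein with a T-box domain (slope -0.067, adjusted p = 0.0382), were the 2 tested. All 5 ParaHox, Evx and Nkx1 relatives (Gsx1, Gsx2, Pdx1, Evx2 and Nkx1-1) were under 1 CPM on average.

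The genes whose profiles were most like each member were ranked among 9837 genes by the lower of the 2 Pearson correlations of log2 CPM, over 16 libraries in Ex4 and 16 in Ex5. These libraries share a drift in time, so the values are descriptions, and r after removal of level and trend is given beside some of them. For Tbx6 the closest were Tmem132a (0.95, and 0.87 after removal), Kalrn (0.94) and the LIM cofactor gene Lmo2 (0.94). For Evx1 they were the collagen gene Col18a1 (0.91, and 0.82 after removal), Pkp2 (0.89) and Sp6 (0.85). For Nkx1-2 they were the HLH inhibitor gene Id3 (0.86, and 0.83 after removal), Setd4 (0.795) and Vrtn (0.77). Cdx1 had Cdh1, which encodes E-cadherin (0.95, but 0.088 after removal), Anxa3 (0.945) and Slc43a2 (0.945). Cdx2 had Zcchc3 (0.83), the ERK phosphatase gene Dusp4 (0.81, and 0.83 after removal) and Rrp7a (0.77). Msgn1 and T had weaker neighbours. Those of Msgn1 were Epc1 (0.72, but 0.089 after removal), the Wnt receptor gene Fzd1 (0.715, and 0.74 after removal) and Cstf1 (0.68, and 0.335 after removal). Those of T were Eif2ak1 (0.69, but 0.055 after removal), Srpk1 (0.68, and 0.69 after removal) and Tpp1 (0.68, but -0.17 after removal).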

How the data were processed

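Libraries were made from 200 ng of RNA with a kit that selects polyadenylated RNA and keeps its strand, per the labels' protocols. The authors deposited unscaled read counts per gene symbol. The submitters' processing notes name HTSeq 0.6.1, HISAT2 2.1.0, cutadapt 1.14, bcl2fastq 2.17.1.14 and the build mm10, and the sources used here give neither annotation nor strand setting. Totals ran from 19.3 to 29.5 M counts (Ex4) and from 16.1 to 28.6 M (Ex5). The Ex4 library of 405 min had the highest mitochondrial share, 0.682%, and 0 pairs of libraries were identical.

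TMM scaling and the quasi-likelihood model came from edgeR 4.0.16 (R 4.3.3). A gene was tested if 16 or more libraries reached 1 CPM. Terms were, per experiment, an intercept at 285 min and a slope, and, in common, sine and cosine of the Hes7 phase. That phase came from least squares on Hes7 (prior count 0.5, periods tried from 90 to 240 min). P-values were Benjamini-Hochberg adjusted at 0.05, and SEs derive from the F statistics. The procedure was tested on simulated data. Gene positions and lengths are those of GENCODE M21, and promoters those of RefSeq. Named genes are the 8 members, the 3 most alike per member (mean of at least 5 CPM), the list genes with the largest slopes (3 per list) or amplitudes (2 per list), and some list genes chosen after their values were seen. The members and lists were chosen with earlier results of these data known. Alternatives were other scalings, DESeq2 1.42.0, limma-voom (limma 3.58.1), filters, periods and trend terms, single experiments, and single libraries left out. Leaving out the end libraries of Ex4, or the first 3 of Ex5, was chosen after seeing the data.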

Additional observations from a re-analysis of the deposited data

Results flagged for a closer look

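In 4 genes the slope over time differed between the time courses by a test of the difference itself (edgeR quasi-likelihood test, adjusted over all genes). For Msgn1 the difference, Ex5 minus Ex4, was -0.28 log2 per 100 min (95% interval -0.36 to -0.20, adjusted p = 3.98e-06), from a slope of 0.033 in Ex4 and -0.25 in Ex5. For T it was -0.201 (-0.26 to -0.14, adjusted p = 4.02e-06), from 0.003 and -0.20. For Evx1 it was -0.167 (-0.24 to -0.092, adjusted p = 0.00187), from -0.061 and -0.23. For Cdx2 it was -0.122 (-0.18 to -0.069, adjusted p = 0.00141), from -0.002 and -0.12. Left out in turn, no single library ended any of these 4 calls, and the highest adjusted p was 0.00876, for Evx1.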

How the results depend on the processing

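The 7 calls for trend and for level were kept under the alternatives run, with 2 exceptions. The filter of 5 CPM left Cdx1 untested and gave 6 calls for each. Ex4 alone gave 4 members called for trend, Evx1 included, with 0.033 for Msgn1 and 0.008 for T (neither past the threshold). With the time point number as a replicate block all 7 level calls stood, with 0.79 for Msgn1 and -1.16 for Nkx1-2. The numbers share only a number (r of 0.047 to 0.545 over 16 pairs, 14 over 0.1, 2 libraries closest to their own number). Members called for rhythm, 2 in the fit reported, numbered 0 in Ex4 alone and 1 in Ex5 alone, with no time trend, and at 120 or 180 min. Members called for curvature numbered 0 without the first and last Ex4 libraries, 1 without the first 3 of Ex5 (Evx1, not called as reported), and 1 to 3 with single libraries left out. Without cosine and sine terms Cdx2 lost its slope difference (-0.11, adjusted p = 0.0596). The cause was not tested.

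Apart from these slopes, signs turned only in values that passed no test as reported. Measured along the reported phase, the T rhythm was -0.04 (Ex5 alone), -0.002 (150 min) and -0.019 (180 min), and that of Cdx1 -0.67 with no trend. Rhythm differences with no trend were -0.044 for T and -0.22 for Cdx1. That of Msgn1 was -0.043 (150 min), -0.11 (180 min), -0.034 (quadratic time) and -0.063 (without the first 3 Ex5 libraries), and -0.028 to 0.068 with single libraries left out. Without the first 3 Ex5 libraries the Tbx6 slope difference was -0.053, and curvature was 0.004 for T, 0.039 for Nkx1-2 and 0.029 for Cdx2. Cdx2 curvature was 0.003 without the first and last Ex4 libraries. Leaving out single libraries gave -0.044 to 0.004 for Nkx1-2 and -0.012 to 0.002 for Cdx2. After removal of level and trend the likeness of Tpp1 to T was -0.17.

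Over all genes, trend calls numbered 6280 (3715 in Ex4 alone), rhythm 155 (39 in Ex4, 48 in Ex5, 62 with no trend), and rhythm differences 0 (2 without a filter, 3 at 180 min, 1 without the first 3 Ex5 libraries). Level calls numbered 6485 (2707 at the shared times), slope differences 1894 (975 without the first 3 Ex5 libraries), and curvature 2176 (1042 without the first and last Ex4 libraries, 809 without the first 3 of Ex5, and as few as 1411 with 1 library left out). Depth limits Cdx4 and Cdx1.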
